A study of Homo sapiens with 3 samples.

Results

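The 3 Cal-33 transcriptomes described here were set against each other to ask how cells depleted of BACH1 differ from cells depleted of p53. Cal-33 is an established human line of tongue squamous carcinoma cells, with the genotype given as WT in the labels. The groups were siBACH1 (cells given an siRNA against BACH1), sip53 (cells given an siRNA against p53) and siControl (cells given a control siRNA), with 1 library each. All cells were transfected and harvested after 72 h, and total RNA went into SMARTER mRNA libraries. Each group is 1 library of 1 line, so an effect of the siRNA itself and an effect of the loss of its target cannot be told apart, and no difference below has a replicate check, a test or an error.

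The unit is TPM, transcripts per 1000000, which is scaled by transcript length and keeps no depth. Genes entered the description when they had at least 5 TPM in siBACH1, in sip53 or in both. Of 28890 listed genes, 10065 did so. Of these, 181 were left out, 162 as pseudogenes and 19 as read-through symbols, and 0 were clone or LOC symbols. The remaining 9884 genes, 9865 of them protein-coding, held 97.5% of the listed TPM in siBACH1, 97.1% in sip53 and 97.4% in siControl. At the edge of the rule, SNX30 (5.00 TPM in siBACH1) and GARRE1 (5.00 TPM in sip53) were just inside, while TMEM17 and SETD1B, which fell short of the limit in sip53 only past the decimals printed here, were just outside.

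BACH1 is a transcriptional repressor that pairs with small MAF proteins and sits on antioxidant response elements, the same DNA sites that the activator NRF2 uses. Heme binds BACH1, releases it from DNA and sends it to degradation, so genes of heme breakdown, iron storage and glutathione synthesis are classic genes under its control. p53 is a transcription factor that answers DNA damage by switching on cell cycle inhibitors and cell death genes. Squamous epithelial cells are marked by keratins, desmosomal proteins and clade B serpins.

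The squamous markers matched the labelled cell type. All 7 squamous markers looked at were kept, among them the basal keratin KRT5 at 3101 TPM in siBACH1, 4375 TPM in sip53 and 4883 TPM in siControl. Of the 9 fibroblast markers, 0 were kept. Their summed level was 4.81 TPM in siBACH1, 5.32 TPM in sip53 and 4.18 TPM in siControl, most of it COL1A1, and THY1 was listed at 0 in all 3. Of 10 immune and endothelial markers, CD68 and CDH5 were kept, and KDR was listed at 0 in all 3 libraries.

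For each gene the difference is log2((siBACH1 TPM + 1)/(sip53 TPM + 1)), positive when the level was higher in siBACH1. A departure is the same log2 quantity for a knockdown library over siControl. The pseudocount of 1 TPM shrinks the values of weakly expressed genes, and where a plain fold is given, it is the ratio of TPM. Over the 9884 genes the median difference was -0.01, with quartiles at -0.15 and 0.13, and 96.7% of genes lay within 1.5-fold. The knockdown libraries were thus close to each other for most genes. Differences were above 0 in 4747 genes and below 0 in 5137, the background for each count by sign below.

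At 2-fold, 25 genes were higher in siBACH1 than in sip53 (0.253%) and 33 were lower (0.334%), or 58 in all (0.587%). At 1.5-fold, 129 were higher (1.31%) and 196 lower (1.98%), or 325 in all (3.29%). These shares are the background for each list count below. Weakly expressed genes passed 2-fold more often: of the 1823 genes whose mean in the knockdown libraries was under 10 TPM, 11 were higher and 19 lower (1.65%), against 0.238% of the 2947 genes from 30 to 100 TPM. A gene below the minimum of 5 TPM in a knockdown library entered only through the other one, where it was higher. Just inside 2-fold were PSMC6 and SLFN11 (1.01 each) and UGT1A3 (-1.02). Just outside were AFG1L (0.96), KRT16 (-0.997) and TCN1 (-0.998).

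Each gene past 2-fold was then assigned to the knockdown that departed from siControl by at least 1.5-fold. Over all kept genes, 63 departed upward in siBACH1 (0.637%) and 200 downward (2.02%), while 54 departed upward in sip53 (0.546%) and 128 downward (1.3%). The median departure over all kept genes was -0.08 in siBACH1 and -0.07 in sip53, the background for each list median against siControl below. Both departures share the siControl library, so an odd value there moves both. Of the 58 genes past 2-fold between the knockdowns, 33 departed in siBACH1 alone, 15 in sip53 alone, 6 in both with opposite directions, 2 in both with the same direction and 2 in neither. These classes move with the threshold: with departures counted at 2-fold, 19 genes departed in siBACH1 alone, 9 in sip53 alone and 0 in opposite directions, and with a threshold below 1.5-fold 21 departed in siBACH1 alone and 23 in opposite directions.

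**Figure D1:**
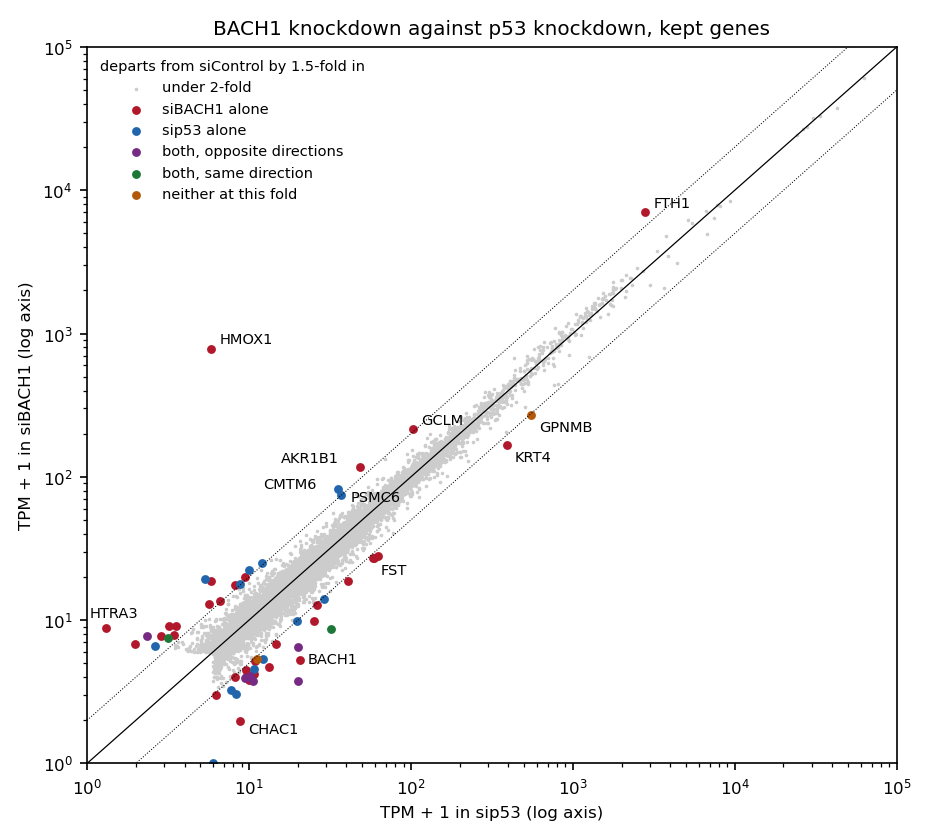
TPM + 1 of each kept gene in siBACH1 (vertical log axis) against sip53 (horizontal log axis), 1 library each, with the line of equality, dotted lines at 2-fold and genes past 2-fold coloured by the knockdown that departs from siControl (1 of them is not drawn). HMOX1, at 785 TPM in siBACH1 and 4.82 TPM in sip53, stands far above all other genes, and FTH1, GCLM, AKR1B1, CMTM6 and PSMC6 are among the genes above the upper dotted line.

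The siRNA target was lower in its own library. BACH1 (chr21:29298922-29361894 on GRCh38.p14) was at 4.30 TPM in siBACH1, 19.6 TPM in sip53 and 15.2 TPM in siControl. Its difference was -1.95, with a departure of -1.61 in siBACH1 and 0.35 in sip53. The partners and rivals of BACH1 stayed within 1.5-fold. NFE2L2, which encodes NRF2, was at 122 TPM in siBACH1 and 151 TPM in sip53 (difference -0.30), and its relative NFE2L1 was at 137 and 182 TPM in the same order (-0.41). KEAP1, the adaptor that marks NRF2 for degradation, was at -0.12. The small MAF genes MAFF, MAFG and MAFK had differences of -0.11, 0.07 and 0.38. Of the 10 listed genes of this family 7 were kept, of which 0 were at least 1.5-fold higher and BACH1 alone was lower. Among all kept genes 1.31% were that much higher and 1.98% lower, so the 0 is near its share.

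The heme, iron and glutathione genes known to be repressed by BACH1 were led by heme oxygenase 1, which opens the heme ring and frees its iron. HMOX1 (chr22:35381096-35394207) was at 785 TPM in siBACH1, 4.82 TPM in sip53 and 4.10 TPM in siControl, a 163-fold ratio between the knockdowns. Its level was low in sip53 and siControl alike, with a departure of 7.27 in siBACH1 and 0.19 in sip53. FTH1, the ferritin heavy chain that stores iron, was at 7059.9 TPM in siBACH1, 2785 TPM in sip53 and 2334 TPM in siControl (difference 1.34). Of the 31-base words of the FTH1 transcripts, 63.0% also occur in transcripts of other genes, most in the overlapping gene BEST1, which was at 0.170 TPM in siBACH1 and 0.202 TPM in sip53. GCLM, the modifier subunit of glutamate cysteine ligase, the first enzyme of glutathione synthesis, was at 215 TPM in siBACH1, 101 TPM in sip53 and 117 TPM in siControl (difference 1.08).

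These 3 genes were high in siBACH1 and close to siControl in sip53. The next members were less far apart. SLC7A11, the cystine importer, was at 46.8 TPM in siBACH1, 29.03 TPM in sip53 and 39.3 TPM in siControl, so that its difference of 0.67 was made up of 0.25 in siBACH1 and -0.42 in sip53. FECH, which inserts iron into protoporphyrin, was at 31.5 TPM in siBACH1, 19.99 TPM in sip53 and 21.0 TPM in siControl (0.63). ME1, the NADPH-forming malic enzyme, had a difference of 0.55 and a departure of 0.64 in siBACH1. TXNRD1, thioredoxin reductase, was at 0.45 and the quinone reductase NQO1 at 0.43.

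Of the 17 listed genes 16 were kept, of which 5 were at least 1.5-fold higher and 0 were lower, with 13 differences above 0 and 3 below. The median was 0.36, against -0.01 over all kept genes, of which 1.31% were at least 1.5-fold higher and 1.98% lower. All 9884 kept genes together had 4747 differences above 0 and 5137 below. Against siControl, 4 members were at least 1.5-fold higher in siBACH1 and 0 in sip53. Their median departures were 0.27 in siBACH1 and -0.06 in sip53, against -0.08 and -0.07 over all kept genes. Of all kept genes, 0.637% were that much higher in siBACH1 and 0.546% in sip53, so the 0 is near its share. Members that did not differ by 1.5-fold included the light chain of ferritin FTL (0.27), the heme transporter SLC48A1 (0.29), the biliverdin reductases BLVRA (0.01) and BLVRB (0.14), and the catalytic subunit GCLC (-0.27). The subunits of glutamate cysteine ligase thus had opposite signs: GCLM was higher and GCLC lower in siBACH1 than in sip53.

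The bases upstream of these genes are shown because the antioxidant response element is the DNA site at which BACH1 and NRF2 compete. RefSeq promoter sequence (GRCh38.p14) was on hand for 12 of the 16 genes. No promoter sequence is shown for HMOX1, FTH1, SLC7A11 and HEBP1. The 250 bases before each start were searched on both strands for the core TGACNNNGC. It was present in 5 of the 12, namely ABCB6, FECH, GCLM, ME1 and TXNRD1. The same core was in 11.04% of all 27305 promoters of the table and in 12.3% of 8110 kept genes. The stretches below run 5′ to 3′ on the strand of the gene, with the core, or its reverse complement, in capitals.
GCLM (chr1:93909431-93909494, minus strand): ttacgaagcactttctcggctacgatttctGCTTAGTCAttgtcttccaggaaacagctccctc
ME1 (chr6:83431150-83431218, minus strand): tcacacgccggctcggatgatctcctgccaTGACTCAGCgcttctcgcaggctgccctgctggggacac
TXNRD1 (chr12:104215650-104215718, plus strand): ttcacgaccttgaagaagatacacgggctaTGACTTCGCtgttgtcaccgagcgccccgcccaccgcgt
FECH (chr18:57586703-57586770, minus strand): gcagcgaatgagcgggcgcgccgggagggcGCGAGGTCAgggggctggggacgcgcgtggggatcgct
ABCB6 (chr2:219219072-219219140, minus strand): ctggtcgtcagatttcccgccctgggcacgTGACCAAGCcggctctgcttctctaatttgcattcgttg

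The core lay 34 to 26 bases before the start in GCLM, 137 to 129 in ME1, 99 to 91 in TXNRD1, 38 to 30 in FECH and 152 to 144 in ABCB6. GCLM and FECH carry it as the reverse complement. The 5 genes did not share a difference: GCLM was at 1.08, FECH at 0.63, ME1 at 0.55 and TXNRD1 at 0.45, while ABCB6, a mitochondrial porphyrin transporter, was at -0.10. The ME1 core holds the letters of the AP-1 site TGACTCA as well, which were found in 4.16% of all promoters. A match is a run of letters, not evidence of binding.

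Among genes past 2-fold between the knockdowns, promoters were on hand for 17 that were higher in siBACH1 and 29 that were lower. The core was in 3 of the 17 (GCLM, CMTM6 and TECPR1) and in 2 of the 29 (CPA4 and RGPD5). Its share was 12.3% of 8110 kept genes, and counts this small do not set either group apart from that. Of those 5 genes with the core, CMTM6 and TECPR1 were low in sip53 and within 1.5-fold of siControl in siBACH1. A second site, the MAF recognition element, was also searched for. It was in 0 of the 17, 0 of the 29 and 0 of the 12 BACH1-repressed genes. Only 6 of 8110 kept genes had it, so each 0 is near its share. The CPA4 promoter, of a secreted carboxypeptidase that was lower in siBACH1, is shown as a contrast to GCLM, and its core also holds the AP-1 letters. That of CMTM6 is shown as one whose gene differed through sip53.
CPA4 (chr7:130293116-130293160, plus strand): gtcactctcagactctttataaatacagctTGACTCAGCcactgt
CMTM6 (chr3:32502853-32502904, minus strand): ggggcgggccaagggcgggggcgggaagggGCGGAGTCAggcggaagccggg

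Other genes that respond to NRF2 were closer together. Of 23 listed, 18 were kept, of which 2 were at least 1.5-fold higher in siBACH1 than in sip53 and 0 lower, and the median was 0.09. Of all kept genes, 1.31% were that much higher and 1.98% lower. AKR1B1, aldose reductase, was at 115 TPM in siBACH1, 47.4 TPM in sip53 and 61.3 TPM in siControl (1.27). The related reductases AKR1C1, AKR1C2 and AKR1C3 had differences of 0.03, 0.14 and 0.17, and AKR1B10 was at -0.42. The sulfiredoxin gene SRXN1 was at -0.10 and the pirin gene PIR at 0.39. TRIM16L was left out by its gene kind, as a pseudogene, and not by its level. It was at 34.5 TPM in siBACH1, 16.9 TPM in sip53 and 19.7 TPM in siControl (0.99).

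The ferroptosis defence genes, which limit the oxidation of membrane lipids that iron drives, had a median of 0.24 over the 19 members listed, all of them kept. The 3 that were at least 1.5-fold higher in siBACH1 were FTH1, GCLM and SLC7A11, which the list shares with the BACH1-repressed genes. Among all kept genes the share that much higher was 1.31%. GPX4, the peroxidase that reduces lipid peroxides, was at 487 TPM in siBACH1, 513 TPM in sip53 and 526 TPM in siControl (-0.07). AIFM2, the quinone reductase also called FSP1, was at 0.35, and DHODH, its mitochondrial counterpart, at -0.33. GCH1, the first enzyme of tetrahydrobiopterin synthesis, was at 5.15 TPM in siBACH1, 4.22 TPM in sip53 and 0.913 TPM in siControl. It was therefore alike in the knockdowns (0.24) and higher than siControl in both (departures of 1.68 and 1.45). Of the 8 listed genes of that pathway 7 were kept, 0 of which passed 1.5-fold between the knockdowns, and the median was 0.11. A 0 in a list of this size is near the share over all kept genes, 3.29%.

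**Figure D2:**
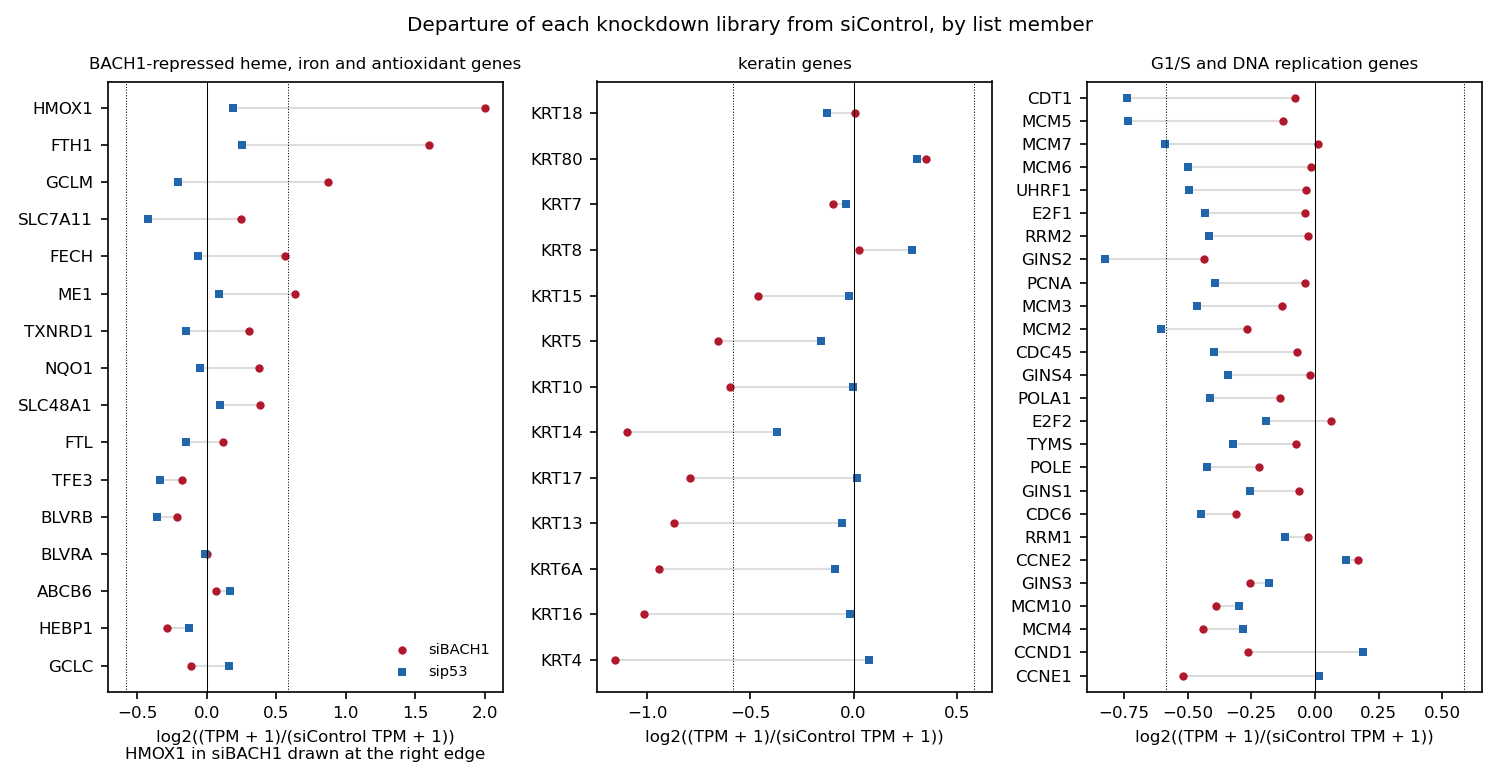
Departure of each knockdown library from siControl, log2((TPM + 1)/(siControl TPM + 1)), for the kept members of 3 lists, with siBACH1 as circles, sip53 as squares and dotted lines at 1.5-fold. HMOX1, FTH1 and GCLM pass 1.5-fold to the right in siBACH1 only, and 8 of 13 keratins pass it to the left in siBACH1 only. Smaller shifts are also seen in sip53, with FTH1 at 0.25 and KRT14 at -0.37. The G1/S genes have a median of -0.08 in siBACH1 and -0.41 in sip53, against -0.08 and -0.07 over all kept genes.

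The keratins were the list with the lowest median. Keratins are the filament proteins of epithelia, and the stratified forms pair up in basal (KRT5 with KRT14 or KRT15), mucosal (KRT4 with KRT13) and wound-type (KRT6A with KRT16 or KRT17) filaments. Of 22 keratins listed 13 were kept, of which 7 were at least 1.5-fold lower in siBACH1 than in sip53 and 0 were higher, with a median of -0.59. Among all kept genes the share that much lower was 1.98%. Against siControl, 8 of 13 were at least 1.5-fold lower in siBACH1 and 0 of 13 in sip53. The median departures were -0.65 in siBACH1 and -0.02 in sip53, against -0.08 and -0.07 over all kept genes. Of all kept genes, 2.02% were that much lower than siControl in siBACH1 and 1.3% in sip53, so the 0 is near its share. Their summed level was 11995 TPM in siBACH1, 17688 TPM in sip53 and 18458 TPM in siControl.

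KRT4 was at 166 TPM in siBACH1, 389 TPM in sip53 and 369.7 TPM in siControl (difference -1.23). Its partner KRT13 was at 2087 TPM in siBACH1, 3679 TPM in sip53 and 3821 TPM in siControl (-0.82). Both were low in siBACH1, and sip53 lay near siControl. KRT16 was at 14.9 TPM in siBACH1, 30.8 TPM in sip53 and 31.2 TPM in siControl (-0.997), and KRT6A was at 447 TPM in siBACH1, 806 TPM in sip53 and 858 TPM in siControl (-0.85). KRT17 had a difference of -0.81, KRT14 of -0.73 and KRT10 of -0.59, while KRT5 and KRT15 were at -0.50 and -0.44.

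The simple epithelial keratins did not follow. KRT8 was at 352 TPM in siBACH1, 420.3 TPM in sip53 and 345 TPM in siControl (-0.26), KRT18 had a difference of 0.14 and KRT7 of -0.06. Keratin paralogs share sequence: 44.0% of the 31-base words of KRT6A, 31.8% of KRT16 and 16.03% of KRT13 occur in other genes, against 1.28% of KRT4. The paralog KRT6C, which shares most with KRT6A, was at 0.380 TPM in siBACH1 and 0.866 TPM in sip53.

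The clade B serpins are mostly intracellular protease inhibitors, and 6 of 13 listed were kept. Of these, SERPINB3 and SERPINB13 were at least 1.5-fold lower in siBACH1 than in sip53 and 0 were higher, and the median was -0.52. SERPINB13 was at 41.3 TPM in siBACH1, 71.4 TPM in sip53 and 62.3 TPM in siControl (-0.77). SERPINB2 and SERPINB5 had differences of -0.58 and -0.45, and SERPINB6 was at 0.18. Of 35 listed genes of the cornified envelope and squamous differentiation 17 were kept, of which DAPL1 alone passed 1.5-fold, and the median was -0.14. Over all kept genes 1.98% were at least 1.5-fold lower, so 1 member in a list of this size, here and in the 3 lists that follow, is near that share. SPRR3, an envelope precursor, was at -0.46 and the kallikreins KLK6 and KLK7 at 0.42 and 0.43, so this list did not move as a block.

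Of 18 listed genes of basal squamous cells and hemidesmosomes 17 were kept, the median was -0.17 and 1 was past 1.5-fold. It was COL17A1, the transmembrane collagen that anchors basal cells, at 17.6 TPM in siBACH1, 39.8 TPM in sip53 and 29.1 TPM in siControl (-1.13). Its partner integrins ITGA6 and ITGB4 were at -0.24 and -0.17. Of 24 listed epithelial junction genes 23 were kept, of which CLDN1, a tight junction claudin, alone was lower, at 91.5 TPM in siBACH1, 151 TPM in sip53 and 118 TPM in siControl (-0.71), and the median was -0.09. The claudin CLDN4 was at 0.49 and E-cadherin, CDH1, at -0.37. Of 15 listed S100 genes 13 were kept, of which S100A7 alone was lower, at 7.16 TPM in siBACH1, 12.1 TPM in sip53 and 8.56 TPM in siControl (-0.69), and the median was -0.11.

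**Figure D3:**
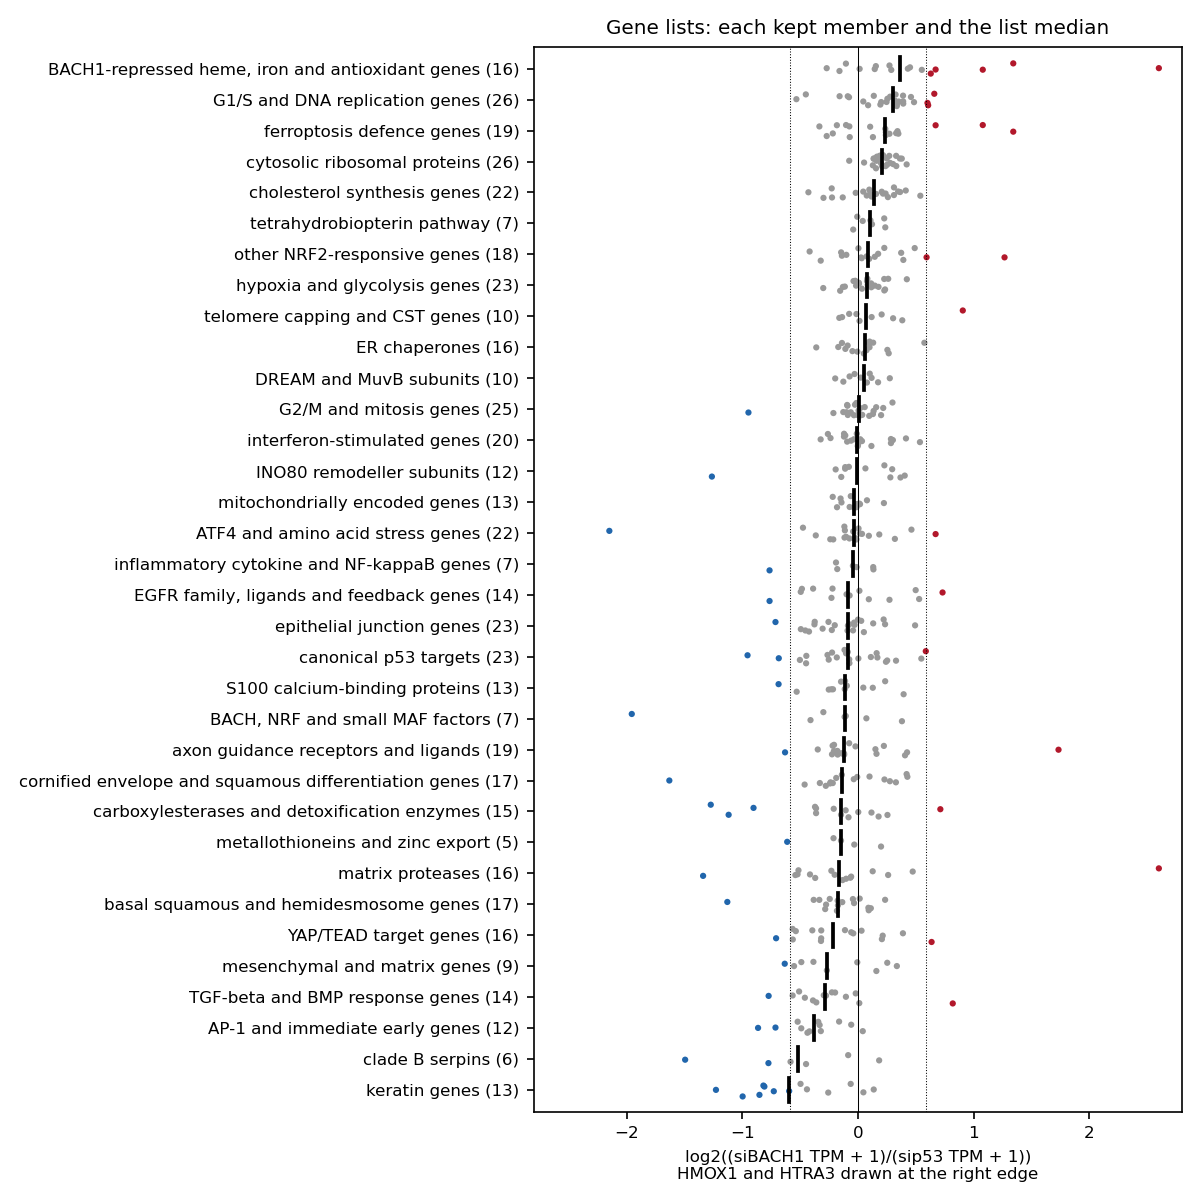
Difference between the knockdown libraries, log2((siBACH1 TPM + 1)/(sip53 TPM + 1)), for each kept member of 34 gene lists (dots), with the list median as a black bar, the number of kept members in brackets and dotted lines at 1.5-fold. The BACH1-repressed genes (median 0.36) and the G1/S genes (0.30) lie at the top, the clade B serpins (-0.52) and the keratins (-0.59) at the bottom, and most medians are within 0.2 of 0.

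HTRA3, a secreted serine protease, was at 7.77 TPM in siBACH1, 0.312 TPM in sip53 and 0.597 TPM in siControl (2.74), the second largest difference among the genes given here. MMP10, the matrix metalloprotease stromelysin 2, was at 8.91 TPM in siBACH1, 24.1 TPM in sip53 and 17.9 TPM in siControl (-1.34). Of 21 listed matrix proteases 16 were kept, of which HTRA3 and MMP10 alone passed 1.5-fold, 1 in each direction, and the median was -0.17. Of 23 listed mesenchymal and matrix genes 9 were kept, of which THBS1, thrombospondin 1, alone passed at -0.63, and the median was -0.27. Among all kept genes 1.31% were at least 1.5-fold higher and 1.98% lower, so 1 member in a direction is near those shares in both lists.

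FST, the secreted inhibitor of activin, was at 26.2 TPM in siBACH1, 57.0 TPM in sip53 and 62.9 TPM in siControl (-1.09). Among TGF-beta and BMP response genes, 14 kept of 20 listed, 1 was at least 1.5-fold higher in siBACH1 and 1 lower. The lower one was LTBP3, a latent TGF-beta binding protein, at 13.4 TPM in siBACH1, 23.5 TPM in sip53 and 25.8 TPM in siControl (-0.77). The other 12 were within 1.5-fold and the median was -0.29. Of YAP/TEAD targets, 16 kept of 20 listed, the coagulation factor receptor F3 was higher (0.64) and ARHGEF17 lower (-0.71), with a median of -0.21. In both lists 1 member passed in each direction, which is near the shares over all kept genes, 1.31% higher and 1.98% lower.

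Among genes of the EGFR family, 14 kept of 19 listed, AREG, a ligand of EGFR, was at 26.2 TPM in siBACH1, 45.1 TPM in sip53 and 41.2 TPM in siControl (-0.76). EGFR itself was at 102 TPM in siBACH1, 144 TPM in sip53 and 147 TPM in siControl (-0.49). ETV4, a transcription factor downstream of this pathway, ran the other way at 0.73, with 20.4 TPM in siBACH1, 11.9 TPM in sip53 and 20.4 TPM in siControl, so that sip53 alone departed. The median of this list was -0.09.

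Of 17 listed AP-1 and immediate early genes 12 were kept, of which 11 had differences below 0, 2 of them past 1.5-fold, and the median was -0.38. Among all 9884 kept genes, 1.98% were at least 1.5-fold lower and 5137 had differences below 0. EGR1 was at 16.5 TPM in siBACH1, 27.6 TPM in sip53 and 22.6 TPM in siControl (-0.71). The kinase gene SIK1 was at 3.90 TPM in siBACH1, 7.92 TPM in sip53 and 3.13 TPM in siControl (-0.86), and 87.4% of its 31-base words also occur in other genes, nearly all in its copy SIK1B. The copy was at 13.4 TPM in siBACH1, 20.6 TPM in sip53 and 19.3 TPM in siControl. JUN was at -0.49, FOS at -0.42 and KLF6 at -0.52.

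Of 31 canonical targets of p53 listed 23 were kept, of which 1 was at least 1.5-fold higher in siBACH1 and 2 were lower, with a median of -0.09. Over all kept genes, 3.29% passed 1.5-fold in either direction. CDKN1A, the cell cycle inhibitor p21, was at 43.2 TPM in siBACH1, 51.7 TPM in sip53 and 54.7 TPM in siControl (-0.25). MDM2, the ubiquitin ligase of p53, was at 31.5 TPM in siBACH1, 33.9 TPM in sip53 and 30.3 TPM in siControl (-0.10). Both lay within 1.5-fold of siControl in each knockdown.

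The members that passed were FAS, TIGAR and FBXW7. The death receptor FAS was at 30.1 TPM in siBACH1, 19.7 TPM in sip53 and 19.8 TPM in siControl (0.59), so sip53 and siControl were level. TIGAR, a regulator of glycolysis, was at 6.18 TPM in siBACH1, 12.9 TPM in sip53 and 7.27 TPM in siControl (-0.95), higher in sip53 than in siControl, and 46.5% of its 31-base words occur in other genes. FBXW7, a ubiquitin ligase subunit, was at -0.68. Over the 23 targets, 0 were 1.5-fold lower than siControl in sip53 and 1 was higher. Their median departure in sip53 was -0.02, against -0.07 over all kept genes. Of all kept genes, 1.3% were that much lower, so a count of 0 in 23 is near that share.

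Most G1/S and DNA replication genes were lower in sip53 than in siBACH1. All 26 listed were kept, and 21 had differences above 0, against 4747 of all 9884 kept genes. In this list 3 were at least 1.5-fold higher in siBACH1 than in sip53 and 0 lower, and the median was 0.30. The median departure was -0.08 in siBACH1 and -0.41 in sip53. Over all kept genes it was -0.08 in siBACH1 and -0.07 in sip53, so the siBACH1 value is that of the background. In sip53, 5 members were at least 1.5-fold lower than siControl, against 0 in siBACH1. Of all kept genes, 1.3% were that much lower in sip53 and 2.02% in siBACH1, so the 0 is near its share. Between the knockdowns, 1.31% of all kept genes were at least 1.5-fold higher in siBACH1. CDT1, which licenses replication origins, was at 21.7 TPM in siBACH1, 13.4 TPM in sip53 and 23.0 TPM in siControl (0.66). The helicase subunit MCM5 was at 143 TPM in siBACH1, 93.6 TPM in sip53 and 156 TPM in siControl (0.61).

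MCM7 followed at 153 TPM in siBACH1, 100.3 TPM in sip53 and 151 TPM in siControl (0.60), and PCNA, the polymerase clamp, at 0.35. These genes shared a low level in sip53. The cyclins of this list differed: CCND1 was at -0.45 and CCNE1 at -0.53, with CCNE1 at 6.91 TPM in siBACH1, 10.4 TPM in sip53 and 10.3 TPM in siControl. The G2/M and mitosis genes had a median of 0.01 over 25 members, all kept. CCNA2, cyclin A2, alone passed 1.5-fold, at 39.4 TPM in siBACH1, 76.9 TPM in sip53 and 71.7 TPM in siControl (-0.95). The subunits of the DREAM complex, which represses cell cycle genes, of which 10 of 12 were kept, had 0 past 1.5-fold and a median of 0.05. Among all kept genes 3.29% passed it, so this 0, and the 1 among the G2/M genes, are near that share.

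Base composition moved with these values. Across 9725 genes with a transcript sequence, the Spearman correlation of the difference with transcript GC content was 0.19, and that of the departure was -0.25 in siBACH1 and -0.45 in sip53. These are descriptions over genes of the same libraries. Median departures of the third of genes richest in GC were -0.14 in siBACH1 and -0.19 in sip53. After a linear correction of the differences for GC content and length, the medians were 0.30 for the G1/S genes, 0.35 for the BACH1-repressed genes and -0.62 for the keratins. The 26 cytosolic ribosomal proteins in the list had a median of 0.21 with 25 above 0 and 0 past 1.5-fold, and summed to 42857 TPM in siBACH1, 36748 TPM in sip53 and 43280.3 TPM in siControl. The 13 mitochondrially encoded genes summed to 276145 TPM in siBACH1, 285789 TPM in sip53 and 242209 TPM in siControl, with a median of -0.03.

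**Figure D4:**
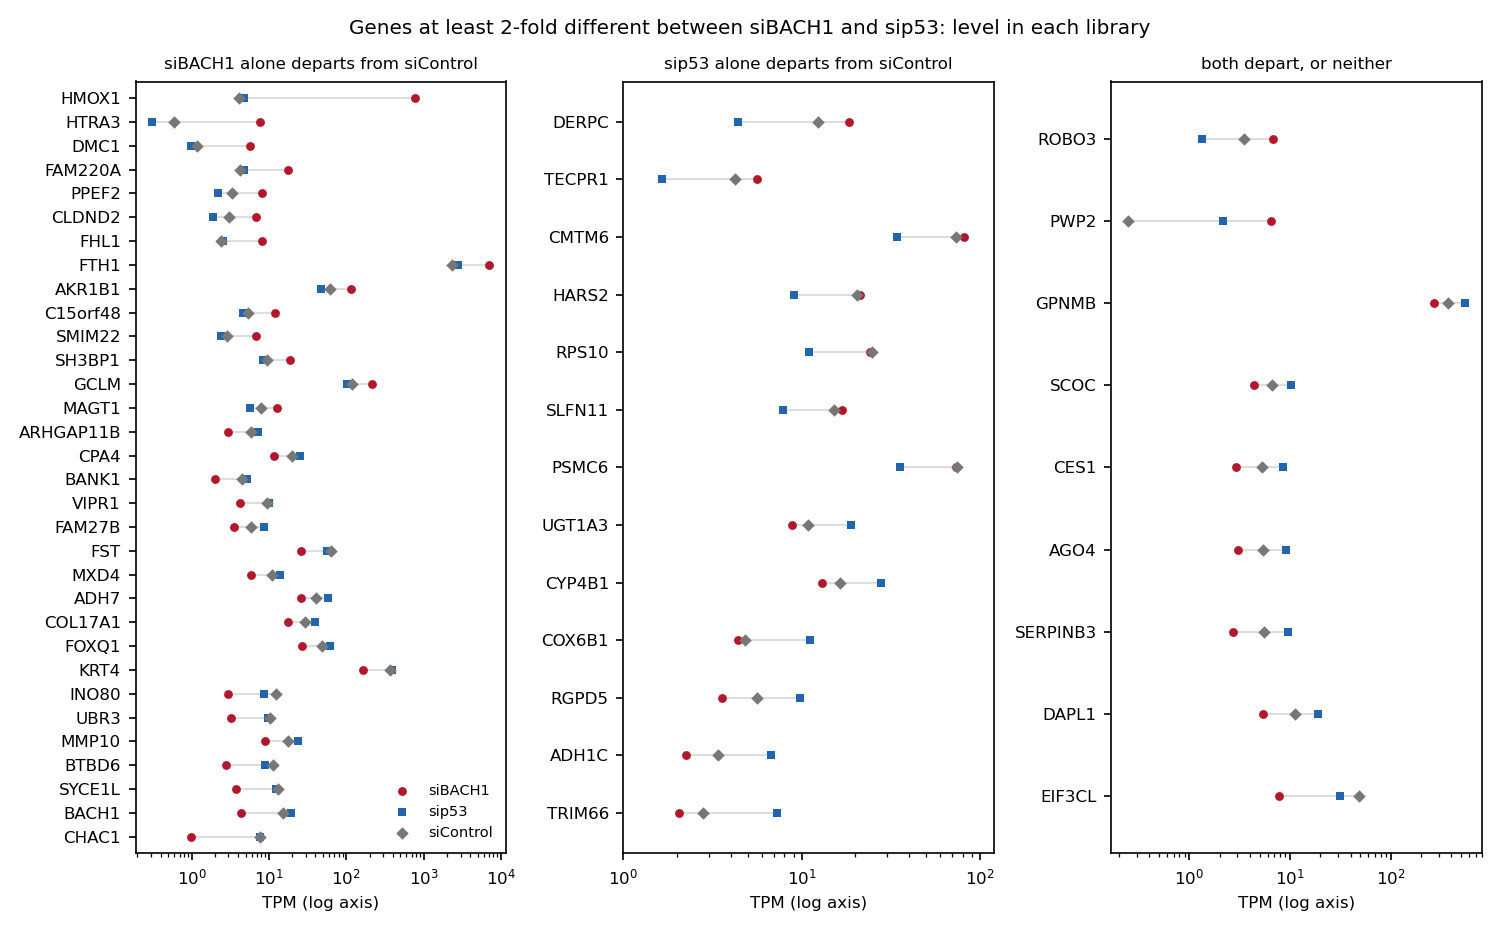
TPM (log axis) in siBACH1 (circles), sip53 (squares) and siControl (diamonds) of 54 of the 58 genes at least 2-fold different between the knockdowns, ordered by their difference and split by which library departs from siControl. HMOX1 and CHAC1 in the left panel have siControl near sip53, PSMC6 and HARS2 in the middle panel have it near siBACH1, and in the right panel ROBO3, DAPL1, SERPINB3, AGO4 and CES1 have siControl between the knockdowns.

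At the 1.5-fold departure, siBACH1 alone set apart 15 higher and 18 lower genes. Beside the heme and iron genes, the higher ones included DMC1, the meiotic recombinase, at 5.78 TPM in siBACH1, 0.978 TPM in sip53 and 1.18 TPM in siControl (1.78). FAM220A was at 17.7 TPM in siBACH1, 4.81 TPM in sip53 and 4.18 TPM in siControl (1.68). FHL1, a LIM domain protein of muscle, was at 8.08 TPM in siBACH1, 2.52 TPM in sip53 and 2.40 TPM in siControl (1.37). These 3 were low in both other libraries.

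The phosphatase gene PPEF2 was at 8.15 TPM in siBACH1, 2.19 TPM in sip53 and 3.36 TPM in siControl (1.52), and CLDND2 at 6.80 TPM in siBACH1, 1.88 TPM in sip53 and 3.01 TPM in siControl (1.44). C15orf48, which encodes a small mitochondrial protein, was at 12.02 TPM in siBACH1, 4.65 TPM in sip53 and 5.43 TPM in siControl (1.20). Other higher members were SMIM22 (1.20), SH3BP1 (1.08) and the magnesium transporter MAGT1 (1.05). Of the 31-base words of SH3BP1, 37.2% occur in other genes.

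Of the lower genes in this class, CHAC1, which degrades glutathione and is a late target of the stress factor ATF4, had the lowest ratio. CHAC1 (chr15:40953471-40956512) was at 0.975 TPM in siBACH1, 7.76 TPM in sip53 and 7.77 TPM in siControl, so sip53 and siControl were level and the knockdowns differed by -2.15. Of 23 listed ATF4 genes 22 were kept, of which CHAC1 alone was at least 1.5-fold lower and SLC7A11 alone higher, with a median of -0.03. Among all kept genes 1.98% were that much lower and 1.31% higher, so 1 in each direction is near those shares. TRIB3, another late ATF4 target, was at 76.5 TPM in siBACH1, 55.3 TPM in sip53 and 62.6 TPM in siControl (0.46).

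The chromatin remodeller ATPase INO80 was at 2.98 TPM in siBACH1, 8.55 TPM in sip53 and 12.2 TPM in siControl (-1.26). Of 14 listed subunits of its complex 12 were kept, of which INO80 alone passed 1.5-fold, and the median was -0.01. As 3.29% of all kept genes passed it, 1 member in a list of this size is near that share. The ATPases RUVBL1 and RUVBL2 were at 0.40 and 0.37. UBR3, a ubiquitin ligase, was at 3.22 TPM in siBACH1, 9.67 TPM in sip53 and 10.5 TPM in siControl (-1.34). BTBD6 was at 2.81 TPM in siBACH1, 8.97 TPM in sip53 and 11.4 TPM in siControl (-1.39), and 32.9% of its 31-base words occur in other genes. SYCE1L was at 3.71 TPM in siBACH1, 12.2 TPM in sip53 and 13.3 TPM in siControl (-1.49).

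FOXQ1, a forkhead transcription factor, was at 26.8 TPM in siBACH1, 61.7 TPM in sip53 and 48.7 TPM in siControl (-1.17), and MXD4, a partner of MAX, at 5.86 TPM in siBACH1, 13.7 TPM in sip53 and 11.01 TPM in siControl (-1.10). CPA4 was at 11.8 TPM in siBACH1, 25.3 TPM in sip53 and 19.7 TPM in siControl (-1.04). VIPR1, the receptor of vasoactive intestinal peptide, was at -1.06 and the B cell scaffold gene BANK1 at -1.06. ARHGAP11B, at -1.03, shares 79.8% of its 31-base words with other genes. The noncoding FAM27B, at -1.09, shares 95.1%.

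Enzymes of alcohol and xenobiotic metabolism appeared in several classes. ADH7, the alcohol dehydrogenase of the upper digestive tract, was at 26.1 TPM in siBACH1, 57.8 TPM in sip53 and 41.2 TPM in siControl (-1.12). ADH1C, which lies in the same gene cluster (chr4:99336497-99352746, against chr4:99412263-99435342 for ADH7), was at 2.24 TPM in siBACH1, 6.73 TPM in sip53 and 3.38 TPM in siControl (-1.25). The departures of ADH7 were -0.64 in siBACH1 and 0.48 in sip53, and those of ADH1C -0.44 in siBACH1 and 0.82 in sip53, so both lay below siControl in siBACH1 and above it in sip53. ALDH3A1, an aldehyde dehydrogenase of surface epithelia, was at 206 TPM in siBACH1, 386 TPM in sip53 and 422 TPM in siControl (-0.90).

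CYP4B1, a cytochrome P450, was at 12.97 TPM in siBACH1, 27.9 TPM in sip53 and 16.5 TPM in siControl (-1.05), so that sip53 departed. The glucuronosyltransferases UGT1A3 (-1.02) and UGT1A1 (0.71) had opposite signs, but they share exons with their neighbours: 85.0% of the 31-base words of UGT1A3 and 52.3% of UGT1A1 occur in other genes. The most abundant of them, UGT1A6, was at 371 TPM in siBACH1, 342 TPM in sip53 and 344 TPM in siControl. Of 27 listed detoxification enzymes 15 were kept, of which 1 was at least 1.5-fold higher in siBACH1 and 3 were lower (CES1, ADH7 and ALDH3A1), with a median of -0.15. Among all kept genes, 1.31% were that much higher and 1.98% lower.

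Of the 15 genes set apart by sip53 alone, 8 were lower in sip53 than in siBACH1 and 7 were higher. CMTM6, a membrane protein that stabilises PD-L1, was at 80.9 TPM in siBACH1, 34.5 TPM in sip53 and 73.1 TPM in siControl (1.21). PSMC6, an ATPase of the proteasome, was at 73.2 TPM in siBACH1, 35.8 TPM in sip53 and 74.1 TPM in siControl (1.01). HARS2, the mitochondrial histidyl-tRNA synthetase, was at 21.3 TPM in siBACH1, 9.04 TPM in sip53 and 20.5 TPM in siControl (1.15). In each of these, siBACH1 and siControl were level and sip53 stood below them.

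DERPC was at 18.5 TPM in siBACH1, 4.36 TPM in sip53 and 12.3 TPM in siControl (1.86). TECPR1, a tethering factor of autophagy, was at 5.61 TPM in siBACH1, 1.64 TPM in sip53 and 4.22 TPM in siControl (1.32). SLFN11, a helicase-like protein of the replication stress response, was at 16.8 TPM in siBACH1, 7.82 TPM in sip53 and 15.3 TPM in siControl (1.01). RPS10 was at 24.2 TPM in siBACH1, 10.98 TPM in sip53 and 24.7 TPM in siControl (1.07). Of the 31-base words of RPS10, 38.4% occur in other genes, most in the read-through transcript RPS10-NUDT3, which was at 11.5 TPM in siBACH1, 12.4 TPM in sip53 and 9.49 TPM in siControl.

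Of the genes higher in sip53 alone, TRIM66, ADH1C, COX6B1, RGPD5 and TRAJ22 were below 5 TPM in siBACH1 and so passed the minimum through sip53. In other classes, BACH1, CHAC1, INO80, UBR3, BTBD6, SYCE1L, SERPINB3, AGO4 and CES1, among others, also passed only through sip53. HMOX1, HTRA3, DMC1, FAM220A, PPEF2, CLDND2, FHL1, C15orf48, SMIM22, ROBO3 and PWP2, among others, passed only through siBACH1. COX6B1, a subunit of cytochrome c oxidase, was at 4.38 TPM in siBACH1, 11.2 TPM in sip53 and 4.81 TPM in siControl (-1.18). TRIM66 was at 2.05 TPM in siBACH1, 7.27 TPM in sip53 and 2.79 TPM in siControl (-1.44). RGPD5 was at 3.58 TPM in siBACH1, 9.76 TPM in sip53 and 5.62 TPM in siControl (-1.23), and 93.9% of its 31-base words occur in other genes. The T cell receptor joining segment TRAJ22, a very short transcript, was at 5.03 TPM in sip53 and listed at 0 in siBACH1 and siControl. CTC1, a telomere capping protein, passed 1.5-fold but not 2-fold, at 8.42 TPM in siBACH1, 4.03 TPM in sip53 and 11.3 TPM in siControl (0.91). Of 11 listed telomere genes 10 were kept, of which CTC1 alone passed 1.5-fold, with a list median of 0.07. The share over all kept genes was 3.29%, so 1 member in a list of this size is near it.

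In 6 genes the knockdowns departed from siControl by at least 1.5-fold in opposite directions. ROBO3, a guidance receptor of the Slit system, was the 1 of these that was higher in siBACH1. ROBO3 (chr11:124865432-124881471) was at 6.80 TPM in siBACH1, 1.35 TPM in sip53 and 3.47 TPM in siControl, with a departure of 0.80 in siBACH1 and -0.93 in sip53. None of its 31-base words occurs in another gene. Of 28 listed axon guidance genes 19 were kept, of which ROBO3 and SEMA3C (-0.63) were the ones past 1.5-fold, and the median was -0.12. The share past it over all kept genes was 3.29%. The receptor ROBO1 was at 0.41.

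The other 5 were lower in siBACH1 and higher in sip53. DAPL1 (chr2:158795317-158815990), an epithelial differentiation gene, was at 5.45 TPM in siBACH1, 19.0 TPM in sip53 and 11.3 TPM in siControl (-1.63, with departures of -0.93 in siBACH1 and 0.70 in sip53). SERPINB3 (chr18:63655197-63661893), the squamous cell carcinoma antigen, was at 2.74 TPM in siBACH1, 9.54 TPM in sip53 and 5.58 TPM in siControl (-1.49). In both, siControl lay between the knockdowns.

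AGO4, an Argonaute protein of small RNA silencing, was at 3.07 TPM in siBACH1, 9.20 TPM in sip53 and 5.44 TPM in siControl (-1.32). CES1 (chr16:55802851-55833096), a carboxylesterase, was at 2.91 TPM in siBACH1, 8.45 TPM in sip53 and 5.27 TPM in siControl (-1.27). Copies bear on 3 of the 6: 63.6% of the 31-base words of SERPINB3, 39.0% of DAPL1 and 36.7% of CES1 occur in other genes. SERPINB4, the near copy of SERPINB3, was at 0.580 TPM in siBACH1, 0.799 TPM in sip53 and 1.00 TPM in siControl. The pseudogene CES1P1 was at 0.193 TPM in siBACH1, 0.458 TPM in sip53 and 1.29 TPM in siControl.

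In the remaining 4 genes past 2-fold, the departures shared a direction or both fell short of 1.5-fold. PWP2, a ribosome assembly factor, was at 6.45 TPM in siBACH1, 2.16 TPM in sip53 and 0.248 TPM in siControl (1.24), and 91.8% of its 31-base words occur in other genes. EIF3CL was at 7.72 TPM in siBACH1, 31.3 TPM in sip53 and 48.9 TPM in siControl (-1.89). Of its 31-base words, 98.5% occur in EIF3C, which was at 223 TPM in siBACH1, 191 TPM in sip53 and 205 TPM in siControl, so the copies cannot be told apart in most of their sequence. GPNMB, a lysosomal and melanosomal glycoprotein, was at 267 TPM in siBACH1, 547 TPM in sip53 and 369.98 TPM in siControl (-1.03), with siControl between the knockdowns. SCOC was at 4.39 TPM in siBACH1, 10.2 TPM in sip53 and 6.66 TPM in siControl (-1.06). Departures of GPNMB were -0.47 in siBACH1 and 0.56 in sip53, and those of SCOC -0.51 and 0.55. Both genes thus had opposite directions just short of the 1.5-fold limit.

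The next 4 lists held 0 genes past 1.5-fold between the knockdowns, and since 3.29% of all kept genes passed it, a count of 0 in lists of this size is near that share. Of 22 cholesterol synthesis genes, all kept, 16 had differences above 0 and the median was 0.14, with MVD at 0.54 and PMVK at -0.43. Of 27 interferon-stimulated genes 20 were kept and the median was -0.01, with ISG20 at 0.54 and BST2 at 0.41. The 16 ER chaperones and stress genes, all kept, had a median of 0.06, with XBP1 at 0.57 and DNAJB9 at -0.36. Over 23 genes of hypoxia and glycolysis, of 26 listed, the median was 0.08, with ALDOC at 0.42. In the next pair of lists a single gene passed. Among inflammatory genes, 7 kept of 23 listed, IL1A was the 1 past 1.5-fold (-0.76) and the median was -0.04. Among metallothionein and zinc export genes, 5 kept of 10 listed, SLC30A1, a zinc exporter, was the 1 past it (-0.61) and the median was -0.15.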

How the data were processed

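RNA from 3 Cal-33 libraries was analysed, 1 each for siBACH1, sip53 and siControl. The authors deposited TPM for 28890 genes. The submitters' processing notes name bcl2fastq 2.20, kallisto 0.44.0 and the builds GRCh38, GRCm38 and mm10 with no role for each. The annotation and strand handling used upstream are, in the sources used here, not given. Per library, the deposited TPM summed to between 978371 and 979148, and 12113 to 12198 genes had at least 1 TPM. TPM keeps no depth, so values carry no interval or floor.

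Values computed here (Python 3.11.15, pandas 2.3.3, numpy 2.4.6) were log2 ratios with a pseudocount of 1 TPM, counted at 2-fold or 1.5-fold. Gene kinds came from RefSeq (GRCh38.p14), where 28800 symbols matched (28344 by symbol and 456 by synonym). Coordinates are RefSeq's on that build. Sequence sharing was the percentage of 31-base words of a gene's GENCODE transcripts that also occur in other genes, since pseudoalignment divides such reads. GC content came from the same transcripts. Only the log2 ratio and its 2-fold count were run on made-up values with planted changes and no noise, which checks the arithmetic alone.

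Named genes were 5 marker genes, BACH1, the 20 highest and the 20 lowest protein-coding genes, all genes with opposite departures, and up to 4 members past 1.5-fold per list, or otherwise 2. Others were named after their values were seen. The members and the 34 gene lists were chosen with earlier results of these data known. The transcript of the other targeted gene and some genes taken by these rules are not reported here. Alternatives covered the pseudocount, the minimum, scaling, GC content, gene kinds and thresholds.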

Additional observations from a re-analysis of the deposited data

Results flagged for a closer look

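In 6 genes the knockdown libraries moved to opposite sides of siControl by at least 1.5-fold each. With 1 library per group the difference was not tested in any of them. The log2 differences of siBACH1 over sip53 in those reported here were 1.73 for ROBO3, -1.63 for DAPL1, -1.49 for SERPINB3, -1.32 for AGO4 and -1.27 for CES1. With a pseudocount of 5 TPM, 0 genes past 2-fold had opposite departures of that size. ROBO3, SERPINB3, AGO4 and CES1 were under 10 TPM in all 3 libraries.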

How the results depend on the processing

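The direct comparison gave 25 genes higher and 33 lower in siBACH1 than in sip53, of which 33 departed from siControl in siBACH1 alone, 15 in sip53 alone and 6 in opposite directions. A pseudocount of 0.1 TPM gave 50 lower genes, 25 departing in sip53 alone and 12 opposite, and held all 58 genes. A pseudocount of 5 TPM gave 9 higher and 11 lower, with 14, 4 and 0 in the classes. A minimum of 1 TPM, or no minimum, gave 58 higher, 61 lower, 64 for siBACH1 alone and 39 for sip53 alone. A minimum of 10 TPM gave 16, 18, 19 for siBACH1 alone and 2 opposite. Without 98 mitochondrial and ribosomal protein genes, which raises every other TPM and lets 10550 genes pass, 48 were higher, 52 lower and 38 departed in sip53 alone. At 1.5-fold 129 were higher and 196 lower, and at 3-fold 7 and 6. With a lower threshold for departures, 21 genes belonged to siBACH1 alone and 23 were opposite. With departures at 2-fold the classes held 19, 9 and 0. The cause was not tested. The counts stayed within 1.5 times of these under rescaling to siControl (factors of 0.945 for siBACH1 and 0.951 for sip53), the GC content and length correction (57 of the 58 genes shared) and protein-coding genes alone. Counting each list once per alternative setting, 295 medians stayed within 0.1 of the main value and 9 moved further. Among these 9, that of the INO80 subunits was 0.25 with a minimum of 10 TPM, and that of the detoxification enzymes was 0.00 with no minimum. Counting each named gene once per alternative setting, 740 values kept their side of the 1.5-fold threshold, 17 fell below it and 4 rose above it. No paired analysis was possible because each group has 1 library, and for the same reason no library could be left out.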
